A study of Mus musculus with 9 samples.

Results

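The 28 genes described here encode the subunits of the ionotropic glutamate receptors, the metabotropic glutamate receptors, a pair of vesicular glutamate transporters and the postsynaptic scaffold proteins Dlg4 and Homer1. They were taken by symbol from a list, out of 26602 genes with a count in midbrain RNA of DJ-1+/+ and DJ-1-/- mice. The study set mice lacking DJ-1, a protein tied to familial Parkinson's disease, beside wild-type mice, and the transcripts of glutamate signalling are given here for that comparison. Midbrain including the substantia nigra was taken from 4 DJ-1+/+ (wild-type, labelled WT) and 5 DJ-1-/- (knockout, labelled KO) mice aged 3 to 4 months, untreated, with 1 library per mouse. The knockout was carried in every cell of the body through a targeted DJ-1 allele with a neo cassette, and the line had been backcrossed to C57BL/6. Mice of both genotypes came from matings of heterozygous parents and shared cages, and their sex is not given in the labels. RNA came from a whole piece of tissue, so that fewer cells of a type and less RNA per cell cannot be told apart.

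Glutamate is the main excitatory transmitter of the brain. It is loaded into synaptic vesicles by vesicular glutamate transporters, and it then opens AMPA, NMDA and kainate receptors, which are ion channels, or acts on metabotropic receptors, which signal through G proteins. In the midbrain, neurons that carry the vesicular transporter VGLUT2 are common, some dopamine neurons carry it too, and glutamate input is known to drive burst firing of dopamine neurons of the substantia nigra. The transporter VGLUT3 is known from raphe neurons, many of which also make serotonin.

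The pair of vesicular transporter genes is shown first, by its promoters, because one was the highest gene of the set and the other one of the 2 lowest tested, and because they ranked the mice differently. Slc17a6 encodes VGLUT2 and lies on chromosome 7 from 51622006 to 51671119 on the plus strand. Slc17a8 encodes VGLUT3 and lies at 89574020 to 89621253 of chromosome 10, minus strand. Each sequence runs from 250 bases before to 50 bases after the transcript start in RefSeq (GRCm38.p6), at chr7:51621580-51621879 on the plus and chr10:89621200-89621499 on the minus strand, with CG dinucleotides in capitals.
Slc17a6: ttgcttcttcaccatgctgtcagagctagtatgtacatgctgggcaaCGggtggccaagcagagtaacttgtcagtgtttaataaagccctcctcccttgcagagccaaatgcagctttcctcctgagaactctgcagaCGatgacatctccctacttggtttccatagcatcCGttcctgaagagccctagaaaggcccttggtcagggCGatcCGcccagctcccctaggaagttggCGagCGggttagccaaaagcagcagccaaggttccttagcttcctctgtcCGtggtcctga
Slc17a8: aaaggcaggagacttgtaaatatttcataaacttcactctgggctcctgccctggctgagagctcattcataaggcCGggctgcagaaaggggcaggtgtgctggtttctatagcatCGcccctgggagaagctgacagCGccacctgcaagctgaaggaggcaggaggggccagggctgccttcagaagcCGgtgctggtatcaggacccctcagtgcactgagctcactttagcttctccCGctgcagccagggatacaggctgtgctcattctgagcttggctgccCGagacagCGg
The promoter of Slc17a6 held 8 CG dinucleotides and that of Slc17a8 held 7, against a median of 7 over 27025 genes in the RefSeq table. The sequence GGGCGG, a GC box, was searched on both strands (as CCGCCC on the other) and was present in the Slc17a6 window, where it takes in 1 of the capital pairs, and not in the Slc17a8 window. Promoters were matched for 19 of the 28 genes. Their median was 17 CG dinucleotides, and 16 of the 19 were at or above the all-gene median. A GC box was found in 10 of the 19 (52.6%), against 35.9% of all genes. The sequence TATAAA, on either strand, was found for 1 of the 19, Grin3b, against 14.2% of all genes. At the ends of the range, the Grik3 promoter held 50 CG dinucleotides and the Grin3b promoter held 3.

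Expression was measured by 3′ mRNA-seq (QuantSeq), which reads transcripts at their 3′ end, so that a longer transcript does not gain counts for its length. Library totals were 841974 to 886085 counts in DJ-1+/+ and 967751 to 1098125 in DJ-1-/- mice. Levels are given as cpm, the count per 1000000 counts of the library, and 3 counts, the smallest level taken as detectable, correspond to 2.73 to 3.56 cpm, which covers counting error only. Park7, the gene of DJ-1, was counted 105 to 132 times in DJ-1+/+ and 14 to 29 times in DJ-1-/- mice. The 100 genes with most counts held 3.67% of all counts and the abundant mitochondrial transcript mt-Co1 had 340 to 417 counts per mouse. The highest count of any gene in any library was 1359, so the range of counts was narrow. Whether the counts of abundant genes reach a ceiling was not tested. Differences in level between genes, fold changes, their intervals and the spread beside counting error are all given with that limit. Differences between the genotypes are log2 fold changes of DJ-1-/- over DJ-1+/+ from edgeR's quasi-likelihood test over 18127 genes, each with its standard error (SE), and the interval given is the 95% interval. The adjusted p (Benjamini-Hochberg over these genes) was 1 for every glutamate gene tested. The p-values of edgeR set the difference between the genotypes against the spread between mice, which is estimated with the help of all genes tested.

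Th, a dopamine-making enzyme and marker of dopamine neurons, was found in every mouse but varied, at 33.9 to 115 cpm. The 10 dopamine neuron markers summed to between 544 and 1065 cpm. Libraries also differed in markers of neighbouring regions. In DJ-1+/+ replicate 4 and DJ-1-/- replicate 5, 6 markers of thalamic neurons summed to 1281 and 1206 cpm, against 487 to 727 cpm in the other 7 libraries, and 5 of the 6 were higher in both than in any other library. In the same pair of libraries 3 markers of serotonin neurons (Tph2, Slc6a4 and Fev) summed to 3.39 and 0 cpm. The other libraries had 97.4 to 264 cpm, and this list was added after the data were seen. DJ-1+/+ replicate 1 stood apart with 1449 cpm of 10 cerebellar markers, against 480 to 737 cpm. The 8 choroid plexus markers summed to 849.8 cpm in DJ-1+/+ replicate 4, against 156 to 395 cpm in the other mice. Transcripts of 4 Y-linked genes were found in 3 libraries (replicates 1 and 4 of DJ-1+/+ and replicate 5 of DJ-1-/-), with at least 234 counts each, and at most 7 counts were found in any other library. These 3 were also the libraries set apart above by thalamic or cerebellar markers. Neither library high in thalamic markers lacked Y-linked transcripts, so region and Y-linked transcripts cannot be told apart in this pair. The 8 pan-neuronal markers, by contrast, summed to between 2055 and 2184 cpm in every mouse.

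No glutamate gene passed the test between the genotypes. Of the 28 genes 27 passed the filter of 10 counts over the 9 libraries, and 0 of these reached an unadjusted p under 0.05 with edgeR, where 2.83% of all genes tested had one, nor an adjusted p under 0.05 (0.00552% of all genes). DESeq2 likewise gave 0 by either measure. The cpm of the genotypes overlapped for all 27, where 1.25% of all genes tested did not overlap. In DJ-1-/- mice 15 genes were higher and 12 lower, with a median log2 fold change of 0.016, against 0.0079 over all genes tested. The log2 fold changes ran from -0.24 for Grm4 to 0.20 for Grik3, and the smallest unadjusted p was 0.0642, for Grin1. With the pair of libraries high in thalamic markers left out, again 0 glutamate genes fell under 0.05 before adjustment, in a fit added after the data were seen.

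The precision of these differences varied with the level of the gene. The median SE was 0.13 on the log2 scale. For 18 genes the 95% interval lay within 0.5 of 0 on the log2 scale, and for 25 it lay within 1. Grin3b and Slc17a8, at means of 8.52 and 18.2 cpm, were the exceptions, with bounds as wide as 1.32. Grm6, which encodes the metabotropic receptor of retinal ON bipolar cells, had 1 count in 1 mouse, DJ-1-/- replicate 3, and was not tested. At these depths its absence from the other libraries says only that it was under 3.56 cpm.

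**Figure D1:**
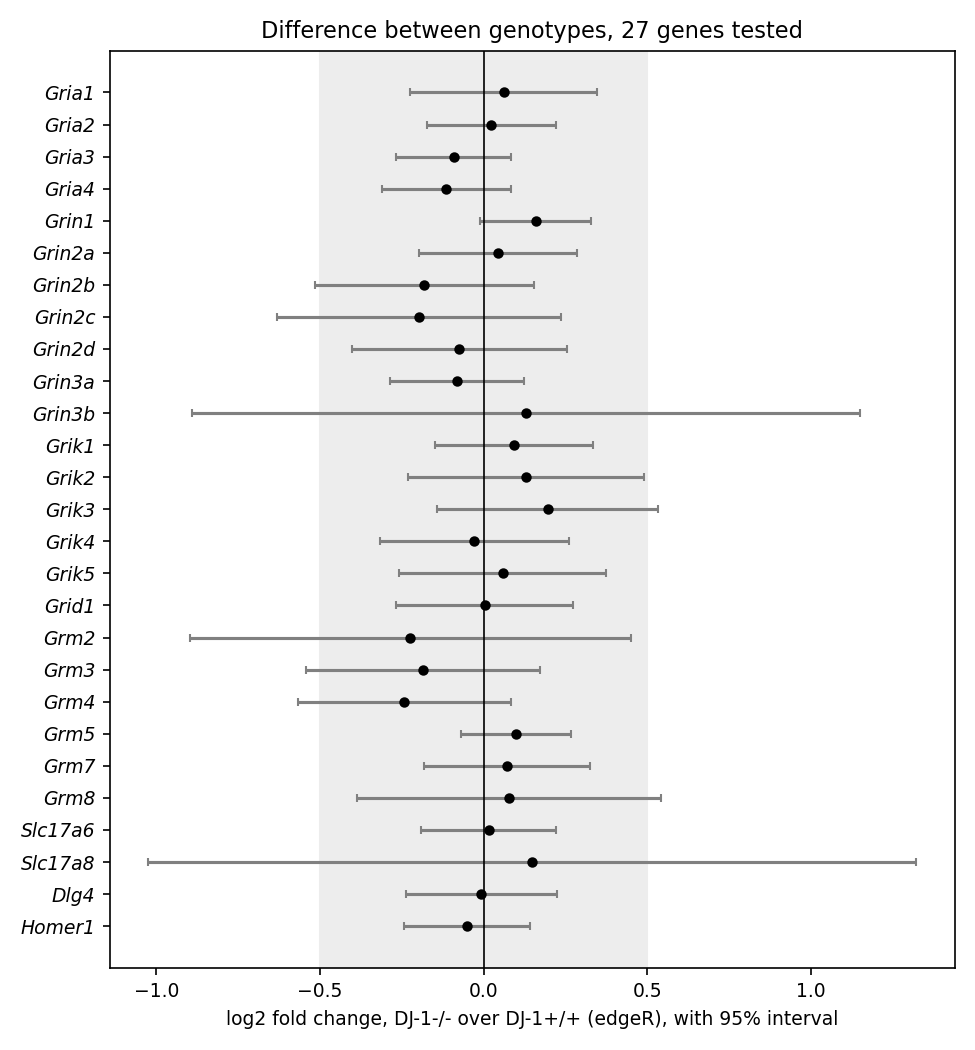
Log2 fold change of DJ-1-/- over DJ-1+/+ (x axis) for the 27 genes tested, from edgeR, with 95% intervals as bars. The shaded band is 0.5 on the log2 scale to either side of 0; every interval crosses 0, and the widest belong to Grin3b and Slc17a8.

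AMPA receptor subunits, which carry most fast excitation, were among the highest genes of the set, at mean levels from 127 to 190 cpm over the 9 mice, and the log2 fold change was above 0 for 2 of the 4 and below 0 for the other 2. Gria1 (GluA1), on chromosome 11 from 57011387 to 57330244, was measured at 179, 222, 135 and 204 cpm in DJ-1+/+ and at 151, 176, 192, 215 and 233 cpm in the DJ-1-/- mice. The lowest value was that of DJ-1+/+ replicate 3 and the highest that of DJ-1-/- replicate 5, and the genotypes overlapped over most of their range. Its log2 fold change was 0.06 (SE 0.13, interval -0.23 to 0.35, unadjusted p = 0.658 in edgeR's test). Gria2, the subunit whose edited form keeps calcium out of the channel, differed by 0.02 on the log2 scale (SE 0.09). Gria3, which is X-linked, and Gria4, a subunit of fast-gating receptors, had log2 fold changes of -0.09 (SE 0.08) and -0.11 (SE 0.09). Summed over the family, AMPA subunits took 589 to 682 cpm in DJ-1+/+ and 556 to 694 cpm in DJ-1-/- mice.

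No AMPA subunit held most of the family. Gria1 held 22.9% to 33.6% of the family's counts, Gria2 24.9% to 30.9%, Gria3 19.8% to 26.7% and Gria4 17.3% to 25.5%. No subunit's share separated the genotypes. The ranges of Gria1 and Gria2 overlapped across mice, so that their order of level was not fixed.

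NMDA receptors need the obligatory subunit GluN1 and the subunits GluN2 or GluN3 beside it. Grin1 (GluN1), on chromosome 2 from 25291181 to 25319187, was measured at 128, 138, 119 and 139 cpm in DJ-1+/+ and at 136, 149, 136, 149 and 159.8 cpm in the DJ-1-/- mice. Of the DJ-1-/- mice 3 lay above every DJ-1+/+ mouse and the other 2 lay within their range. The means were 131 ± 9.36 cpm (SD, n = 4) and 146 ± 10.05 cpm (SD, n = 5), and the log2 fold change of 0.16 (SE 0.08, interval -0.01 to 0.33) did not pass the test (exact two-sided permutation test, p = 0.0952, where 4 mice against 5 allow no p under 0.0159). With Y-linked transcripts as a factor its unadjusted p in edgeR's test was 0.0264, and without DJ-1-/- replicate 3 it was 0.0433, both with an adjusted p of 1. Grin1 overlaps Grin1os on the other strand, and whether counting used strand is not given in the sources used here.

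Grin2b (GluN2B), known for slow channel closing and for its dominance in the young brain, was the highest NMDA subunit by mean level, at 161 cpm over the 9 mice. It lies on chromosome 6 from 135713233 to 136173511 with 4 annotated genes opposite it on the other strand. Its level was 141, 170.5, 138 and 240.4 cpm in DJ-1+/+ mice, then 131, 149, 131, 149.8 and 201 cpm in the DJ-1-/- mice. The highest mouse of either genotype belonged to the pair of libraries high in thalamic markers. The log2 fold change was -0.18 (SE 0.16, interval -0.52 to 0.15, unadjusted p = 0.268 in edgeR's test). It was 0.02 without DJ-1+/+ replicate 4, -0.31 without DJ-1-/- replicate 5, where its unadjusted p in edgeR's test was 0.0469, and -0.11 without both.

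Grin2a (GluN2A), the subunit that gains ground with maturation, was likewise highest, in each genotype, in that pair of libraries. It was measured at 108, 114, 112 and 149 cpm in DJ-1+/+ and at 110.1, 123, 113, 125 and 150.1 cpm in DJ-1-/- mice, so that the other 7 libraries lay between 108 and 125 cpm. Its log2 fold change was 0.04 (SE 0.11). Grin2c (GluN2C), best known from cerebellar granule cells and thalamus, was measured at 85.5, 52.3, 61.7 and 99.3 cpm in DJ-1+/+ and at 63.1, 62.8, 67.1, 42.4 and 89.7 cpm in DJ-1-/- mice. Its third-highest mouse was DJ-1+/+ replicate 1, the library high in cerebellar markers. Grin2c had a log2 fold change of -0.20 (SE 0.20), and -0.03 without DJ-1+/+ replicate 4.

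The remaining NMDA subunits were Grin2d (GluN2D), found in subcortical neurons, Grin3a and Grin3b. Their log2 fold changes were -0.07 (SE 0.16), -0.08 (SE 0.10) and 0.13 (SE 0.48). Grin3b, a GluN3 subunit of motor neurons, was close to the detection limit and overlaps Tmem259 on the other strand. It was measured at 5.94, 4.55, 17.5 and 4.51 cpm in DJ-1+/+ and at 12.01, 12.7, 7.22, 9.30 and 2.92 cpm in DJ-1-/- mice. DJ-1+/+ replicate 3 was thus the highest mouse of all, and without it the log2 fold change was 0.81, still short of the threshold.

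Within the NMDA family the share of Grin1 was 20.9%, 20.5%, 19.8% and 17.4% in DJ-1+/+ mice against 22.5%, 22.9%, 22.4%, 23.2% and 21.3% in the DJ-1-/- mice. This was the 1 share of 29 examined in which the genotypes did not overlap. The 29 are not separate, since GluN2 subunits were counted both in the NMDA family and in a group of their own. By cpm, a different measure, 1.25% of all genes tested did not overlap. The Grin1 share was picked out after the values were seen, and it was not tested. The lowest value of each genotype came from the pair of libraries high in thalamic markers, in which Grin2b took its largest shares of the family, 30.1% and 26.8%. Among the GluN2 subunits Grin2b held 36.4% to 44.2% of counts, Grin2a 27.4% to 34.2%, Grin2c 11.6% to 22.6% and Grin2d 8.50% to 13.6%. In all 9 mice Grin2b was above Grin2a, and no GluN2 share separated the genotypes.

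**Figure D2:**
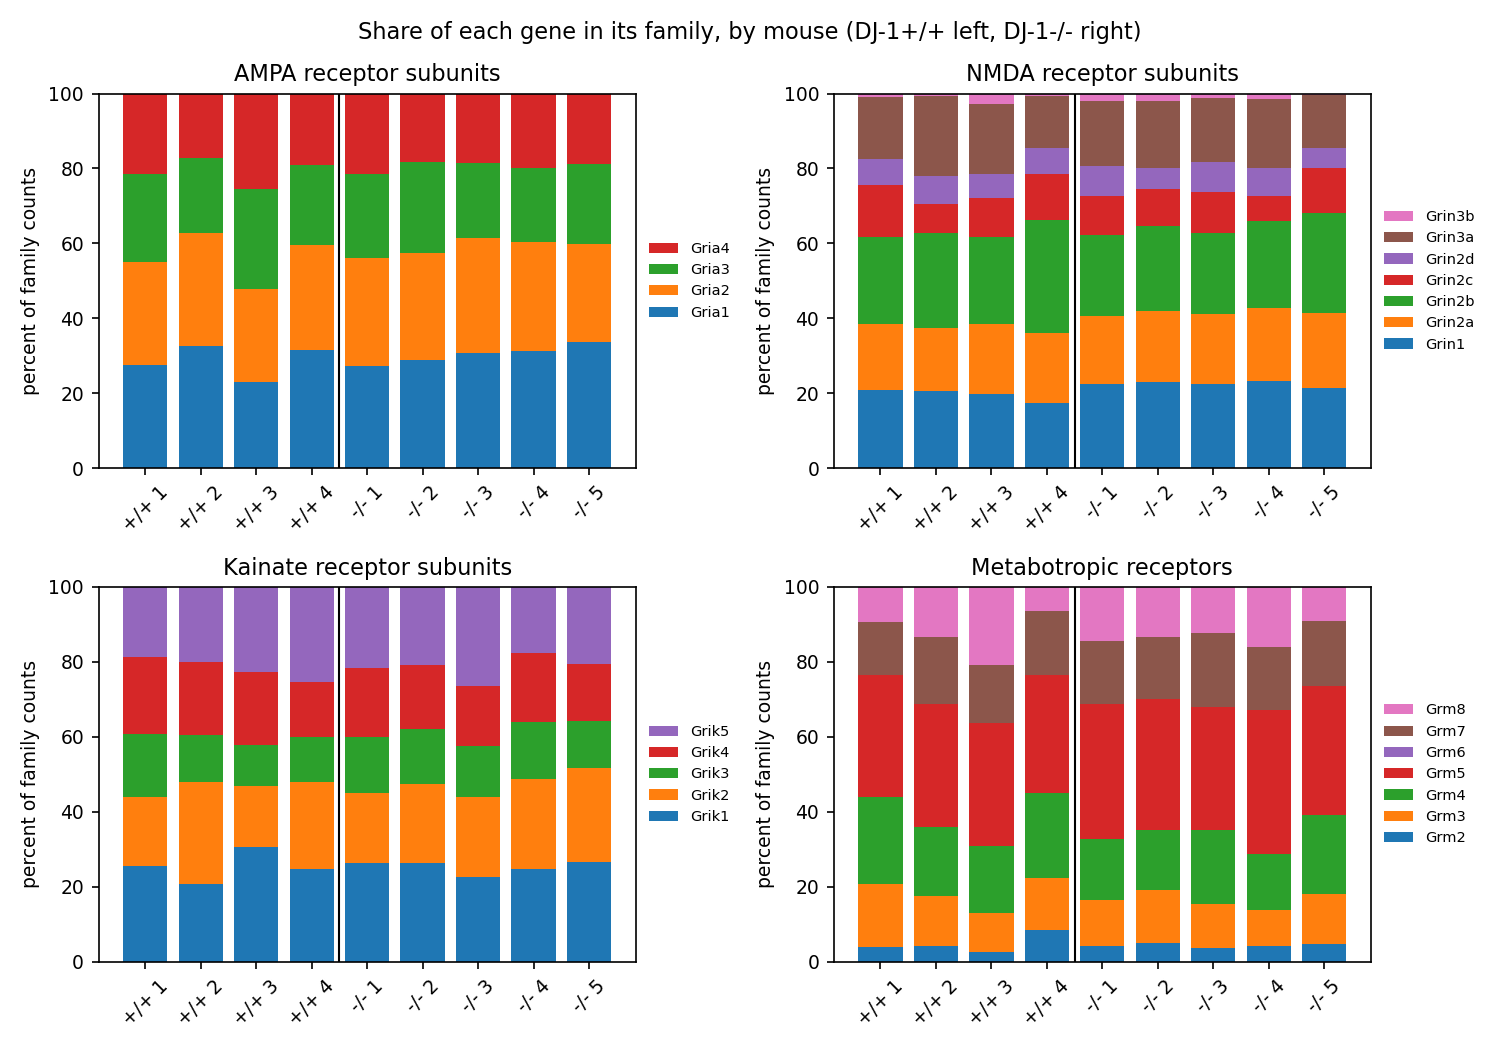
Percent of the family's counts held by each gene (y axis, stacked bars to 100) in each mouse (x axis; DJ-1+/+ left and DJ-1-/- right of the line) for AMPA, NMDA, kainate and metabotropic receptor genes. The Grin1 segment, lowest in the NMDA bars, spans 17.4% to 20.9% in DJ-1+/+ and 21.3% to 23.2% in DJ-1-/- mice, while the other segments overlap between the genotypes.

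Kainate receptor subunits were lower than any AMPA subunit, with means from 39.0 to 72.4 cpm, and 4 of the 5 were higher in DJ-1-/- mice. Grik3 (GluK3), a subunit of low-affinity channels, had the highest log2 fold change of the set, short of the threshold. On chromosome 4 from 125490700 to 125714173, it was measured at 43.9, 36.4, 30.2 and 33.9 cpm in DJ-1+/+ and at 41.0, 41.9, 41.3, 45.5 and 37.0 cpm in DJ-1-/- mice. The DJ-1-/- mice were all above 3 of the 4 DJ-1+/+ mice, but DJ-1+/+ replicate 1 was the second-highest of all. The log2 fold change was 0.20 (SE 0.16, interval -0.14 to 0.53, unadjusted p = 0.238 in edgeR's test, exact permutation p = 0.127), and leaving out 1 library at a time gave 0.12 to 0.30.

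Grik1 (GluK1), the highest kainate subunit, was measured at 66.5, 60.2, 82.6 and 70.0 cpm in DJ-1+/+ and at 73.1, 75.6, 69.1, 74.4 and 79.9 cpm in DJ-1-/- mice. Both extremes belonged to DJ-1+/+ mice, and the log2 fold change was 0.09 (SE 0.11, interval -0.15 to 0.34). Grik2 (GluK2) and the high-affinity subunit Grik5 (GluK5) had log2 fold changes of 0.13 (SE 0.17) and 0.06 (SE 0.15). Grik4 (GluK4), another high-affinity subunit, ran from 41.8 to 56.8 cpm with a log2 fold change of -0.03 (SE 0.14). Its spread over the mice was the smallest of the set relative to counting error, with a chi-square per degree of freedom of 0.419, where counting error alone gives about 1.

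Grid1 encodes the delta receptor GluD1, which is grouped with the ionotropic receptors by sequence and binds cerebellins rather than glutamate at the synapse. Its levels were 72.4, 109, 97.7 and 116 cpm in DJ-1+/+ and 87.1, 87.4, 110.4, 100.2 and 112 cpm in DJ-1-/- mice. The highest mouse of each genotype was again one of the pair high in thalamic markers, and the lowest was DJ-1+/+ replicate 1. Its log2 fold change of 0.0027 (SE 0.13, interval -0.27 to 0.27) was the smallest of the set in size.

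Among the metabotropic receptors, Grm5 (mGluR5), which couples to calcium release, was the highest and Grm2 the lowest of those tested. Grm5, on chromosome 7 from 87584168 to 88134907, was measured at 157, 159, 148 and 174 cpm in DJ-1+/+ and at 170.2, 165, 154, 183 and 182 cpm in DJ-1-/- mice. The genotypes overlapped, with means of 159 ± 10.8 cpm (SD, n = 4) and 171 ± 12.3 cpm (SD, n = 5). Its log2 fold change was 0.10 (SE 0.08, interval -0.07 to 0.27), and Grm5 held 31.4% to 38.4% of the counts of its family.

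Grm4 (mGluR4), a presynaptic receptor that lowers transmitter release and is abundant in cerebellar granule cells, had the lowest log2 fold change of the set, also short of the threshold. It lies on chromosome 17 from 27422387 to 27521403 and overlaps Gm49789 on the other strand. Mouse by mouse it stood at 112, 89.8, 79.1 and 125 cpm in DJ-1+/+ and at 76.1, 75.6, 91.8, 72.3 and 113 cpm in DJ-1-/- mice. The 3 highest mice were the pair of libraries high in thalamic markers and DJ-1+/+ replicate 1, the library high in cerebellar markers. The log2 fold change was -0.24 (SE 0.15, interval -0.57 to 0.08, unadjusted p = 0.134 in edgeR's test, exact permutation p = 0.222). It ran from -0.37 without DJ-1-/- replicate 5, with an unadjusted p of 0.0169 in edgeR's test, to -0.12 without DJ-1+/+ replicate 4, and was -0.08 with Y-linked transcripts as a factor. In edgeR's test its unadjusted p was also 0.0464 without the filter, 0.0215 with the replicate block and 0.0374 without DJ-1+/+ replicate 3. With the thalamic level as covariate, chosen after the data were seen, the log2 fold change was -0.22 (unadjusted p = 0.0494 in edgeR's test). The smallest adjusted p of Grm4 over all alternatives was 0.86.

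Grm2 (mGluR2), an autoreceptor, was measured at 19.0, 20.5, 11.6 and 46.3 cpm in DJ-1+/+ and at 19.0, 22.8, 17.5, 19.6 and 25.3 cpm in DJ-1-/- mice. DJ-1+/+ replicate 4 was above all others by a wide margin, and the next was DJ-1-/- replicate 5. The log2 fold change of -0.22 (SE 0.32) became 0.29 without DJ-1+/+ replicate 4. Grm3 (mGluR3), which is also made by astrocytes, had a log2 fold change of -0.19 (SE 0.17). Grm7 and Grm8, presynaptic receptors like Grm4, had log2 fold changes of 0.07 (SE 0.12) and 0.08 (SE 0.22). Grm8 ran from 35.0 cpm in DJ-1+/+ replicate 4 to 93.1 cpm in DJ-1+/+ replicate 3, and DJ-1-/- replicate 5 was the lowest DJ-1-/- mouse at 48.7 cpm.

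Slc17a6 (VGLUT2) was the highest gene of the set, at 211 cpm over the 9 mice. It was measured at 195, 215, 198 and 231 cpm in DJ-1+/+ and at 192, 195, 193, 222 and 258 cpm in DJ-1-/- mice. The pair of libraries high in thalamic markers again gave the top value in each genotype, and the other 7 libraries lay between 192 and 222 cpm. The means were 209.7 ± 16.9 cpm (SD, n = 4) and 212 ± 28.7 cpm (SD, n = 5), and the log2 fold change was 0.02 (SE 0.10, interval -0.19 to 0.22, unadjusted p = 0.873 in edgeR's test).

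Slc17a8 (VGLUT3) varied most of the set between mice relative to counting error, with a chi-square per degree of freedom of 8.74. Among DJ-1+/+ mice it was counted 11, 11, 33 and 4 times (13.1, 12.5, 38.4 and 4.51 cpm). Among DJ-1-/- mice it was counted 32, 13, 15, 32 and 3 times (32.0, 11.8, 15.5, 33.1 and 2.92 cpm). The lowest mouse of each genotype was the one whose serotonin markers summed to 3.39 or 0 cpm, and the 3 highest mice, DJ-1+/+ replicate 3 and DJ-1-/- replicates 1 and 4, were also the 3 highest in serotonin markers, at 241, 264 and 228 cpm. The serotonin list was added after the data were seen, and the part of either marker list in this spread was not tested. With a spread so large the log2 fold change of 0.15 (SE 0.55, interval -1.02 to 1.32) was undetermined in sign, at -0.17 without DJ-1+/+ replicate 4 and 0.91 without DJ-1+/+ replicate 3.

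The balance of these transporters parted the same mice. There were 14.9, 17.2, 5.15 and 51.2 counts of Slc17a6 per count of Slc17a8 in DJ-1+/+ mice against 6, 16.5, 12.5, 6.72 and 88.3 in the DJ-1-/- mice. The 2 highest ratios were again those of DJ-1+/+ replicate 4 and DJ-1-/- replicate 5, which rest on 4 and 3 counts of Slc17a8, and the genotypes overlapped throughout. Slc17a7 (VGLUT1), the transporter of cortical and cerebellar granule neurons and not part of the set, was measured at between 55.7 and 134 cpm, with a log2 fold change of -0.14 (SE 0.20).

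Dlg4 (PSD-95), the scaffold that anchors NMDA and AMPA receptors, lies on chromosome 11 from 70016942 to 70047522. It was measured at 156, 144, 149 and 193 cpm in DJ-1+/+ and at 163, 164, 125, 178 and 169 cpm in DJ-1-/- mice. The highest mouse was DJ-1+/+ replicate 4 and the lowest DJ-1-/- replicate 3, and the log2 fold change was -0.0071 (SE 0.11, interval -0.24 to 0.22). Homer1, which ties mGluR5 to internal calcium stores, had a log2 fold change of -0.05 (SE 0.09).

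**Figure D3:**
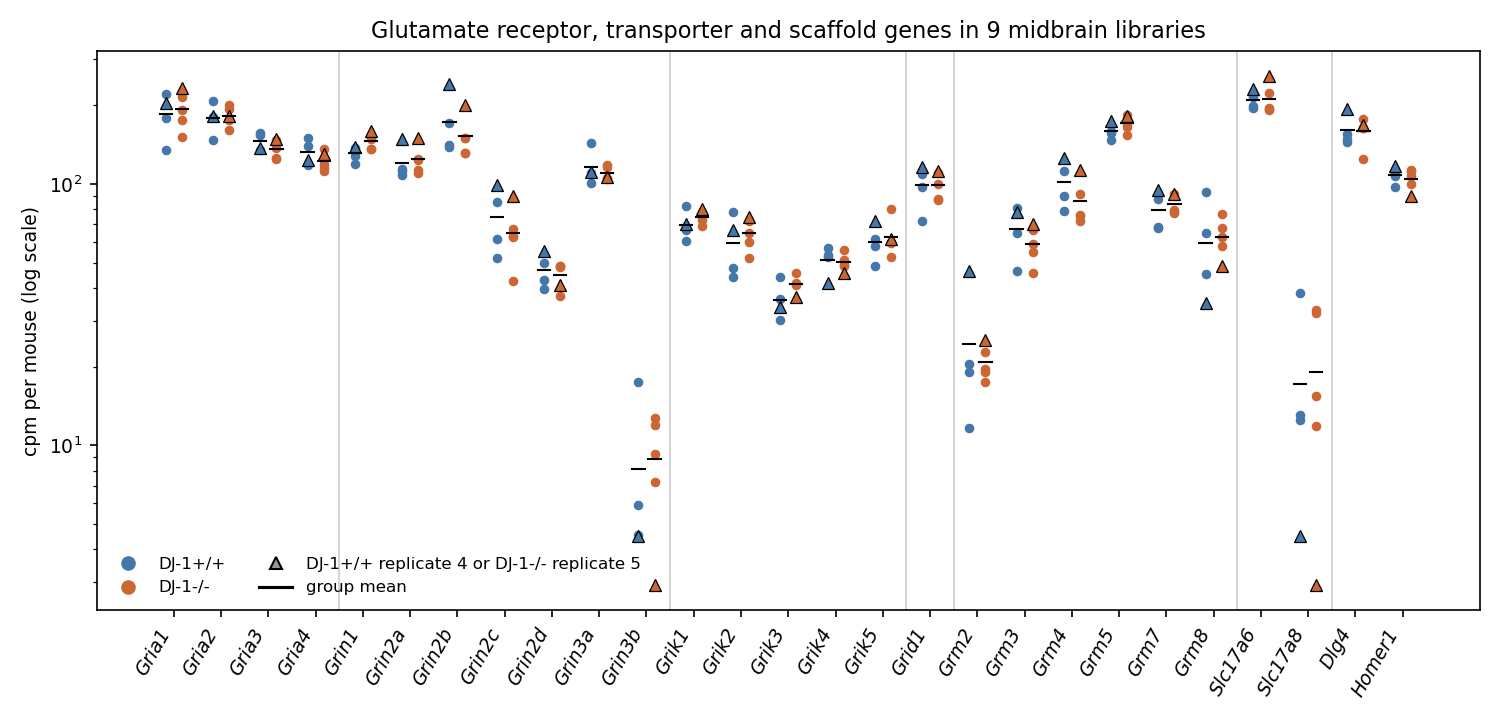
Level of the 27 genes tested in each mouse (y axis, cpm on a log scale; DJ-1+/+ blue, DJ-1-/- orange; triangles are DJ-1+/+ replicate 4 and DJ-1-/- replicate 5; bars are group means), grouped by role. The genotypes overlap for every gene, and the triangles are the highest points of both genotypes for Grin1, Grin2a, Grin2b, Grin2c, Grid1, Grm2, Grm4 and Slc17a6 and the lowest for Grin3b, Grik4, Grm8 and Slc17a8.

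The spread of each gene over the mice was set beside its counting error. The chi-square per degree of freedom over the 9 libraries was above 2 for 13 of the 27 genes, with a median of 1.94, against 19.1% of the 12812 genes with 73 to 1801 counts, the range of the set, whose median was 1.11. Those genes were not matched to the set by count within that range, and the part of count level in this difference was not tested. DJ-1+/+ replicate 4 and DJ-1-/- replicate 5 were both above the other 7 libraries for 7 of the 27 genes (Grin2a, Grin2b, Grin2c, Grid1, Grm2, Grm4 and Slc17a6), where 5.52% of all genes tested and 6.26% of those with at least 200 counts showed this. They were both below the other 7 for 3 genes (Grin3b, Grik4 and Slc17a8), where 5.79% of all genes tested and 6.01% of those with at least 200 counts did. For Grin3b, DJ-1+/+ replicates 2 and 4 both had 4 counts. The spread of Grik4 was not above counting error (chi-square per degree of freedom 0.419). The libraries were singled out by their marker levels, after the data were seen, and these numbers of genes carry no test. NMDA subunits summed to 798 and 750.3 cpm in this pair and to 598 to 672 cpm in the other libraries, while kainate subunits summed to 260.1 to 304 cpm with the pair inside the range.

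**Figure D4:**
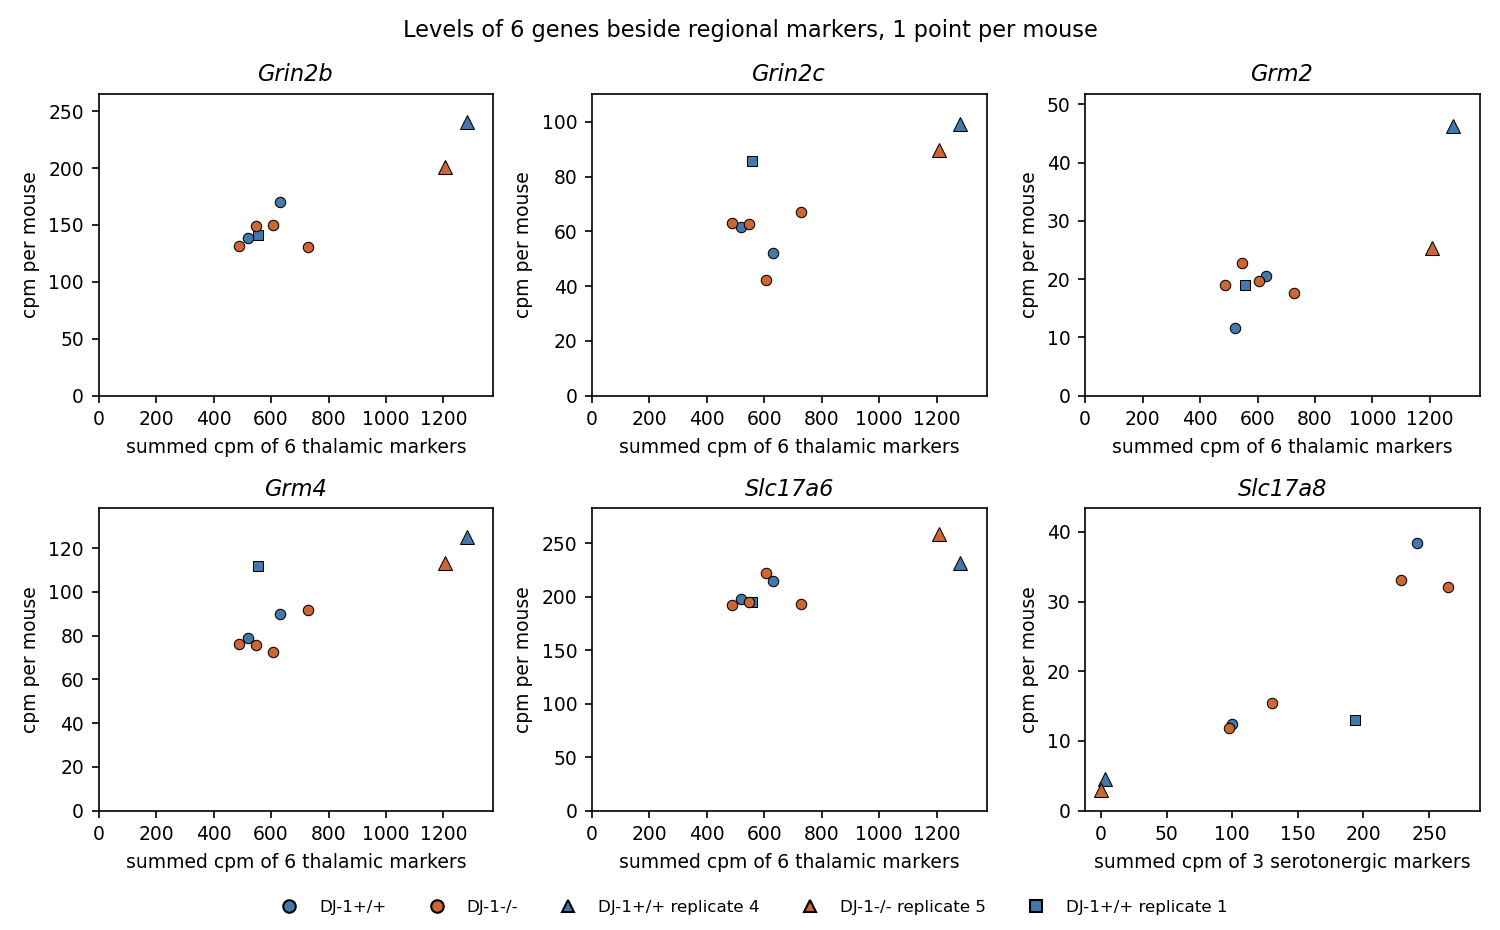
Level of 6 genes in each mouse (y axes, cpm from 0) against the summed cpm of 6 thalamic markers or, for Slc17a8, of 3 serotonin neuron markers (x axes); triangles are DJ-1+/+ replicate 4 and DJ-1-/- replicate 5 and the square is DJ-1+/+ replicate 1. The triangles lie at 1281 and 1206 cpm of thalamic markers and hold the top levels of Grin2b, Grin2c, Grm2, Grm4 and Slc17a6. They lie at 3.39 and 0 cpm of serotonin markers, a list added after the data were seen, with the lowest levels of Slc17a8.

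Genes that work with these receptors were then compared, from a list of 49 drawn up by role: auxiliary subunits, scaffolds, synaptic kinases, extracellular organisers, glutamate uptake carriers, and other receptors and a transporter. All 49 were tested, with 24 higher in DJ-1-/- mice and 25 lower, and their median log2 fold change was -0.0074. Of the 49, 1 reached an unadjusted p under 0.05 with edgeR, where 2.83% of all genes tested did, and it had an adjusted p of 1.

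The extremes of the 49 genes were Homer3, a scaffold of Purkinje cells, at a log2 fold change of -0.48 (SE 0.33), and Cacng8, an auxiliary AMPA subunit, at 0.38 (SE 0.32). Homer3 was highest in DJ-1+/+ replicate 1, the library high in cerebellar markers, at 40.4 cpm against 10.2 to 24.4 cpm in the other mice. The 12 auxiliary AMPA subunits divided into 9 higher and 3 lower, the 16 scaffolds into 9 higher and 7 lower, and the 10 extracellular organisers into 5 and 5. All 4 uptake carriers were lower in DJ-1-/- mice, by 0.0074 to 0.22 on the log2 scale, and none had an unadjusted p under 0.05 with edgeR. Exact permutation tests of their cpm gave p from 0.0476 (Slc1a2) to 0.984 (Slc1a3), unadjusted.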

How the data were processed

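Midbrain RNA of 4 DJ-1+/+ and 5 DJ-1-/- mice was measured by QuantSeq 3′ mRNA-seq. The authors deposited whole-number UMI counts per Ensembl gene for each mouse, without normalization. The submitters' processing notes name fastp 0.20.0, STAR 2.7.3a, featureCounts 2.0.0, UMI-tools 1.0.0 and GRCm38. Strand use and the annotation are not given in the sources used here, so overlapping genes cannot be told apart. A gene missing from a library was given 0 counts. Symbols and positions came from GENCODE M21, which held 26570 of the 26602 genes.

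Groups and replicate numbers came from the sample labels. The 18127 genes that reached 10 counts summed over the libraries were fitted with edgeR 4.0.16 (TMM, glmQLFit, glmQLFTest) in R 4.3.3, with genotype as the term and Benjamini-Hochberg adjustment over all genes tested. The cpm of single genes were compared with exact two-sided permutation tests in scipy 1.17.1. Pairs of libraries of 1 genotype differed by 1.07 to 2.27 in chi-square per degree of freedom over 16 pairs, so none was treated as a copy of another. The fit was tested on simulated data with known changes.

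The 28 genes and all lists were chosen with earlier results of these data known. Genes given in full are those with the highest and lowest log2 fold change, the highest of each role group, and those that stood apart together with a marker list. The serotonin and habenular marker lists were added after the data were seen. Alternatives were RLE size factors, library totals, DESeq2 1.42.0, other filters, thinned counts, a replicate block, a Y-linked factor, and each library left out. Leaving out both libraries high in thalamic markers, and the thalamic level as a covariate, were chosen after seeing the data. Values of some partner genes are not reported here.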

Additional observations from a re-analysis of the deposited data

Results flagged for a closer look

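In 4 of 54 groups examined, 1 mouse lay far from the rest of its genotype by Dixon's test, where chance gives about 1 in 20 (2.7 groups). Grin2a was at 149 cpm in DJ-1+/+ replicate 4, against 108 to 114 cpm in the other DJ-1+/+ mice, and Grin2b was at 201 cpm in DJ-1-/- replicate 5, against 131 to 149.8 cpm in the other DJ-1-/- mice. Both libraries held the highest levels of thalamic markers and also held Y-linked transcripts, and the part of either in these values was not tested. Grin3b was at 17.5 cpm in DJ-1+/+ replicate 3, against 4.51 to 5.94 cpm. Dlg4 was at 125 cpm in DJ-1-/- replicate 3, against 163 to 178 cpm.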

How the results depend on the processing

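None of the 19 alternatives gave a glutamate gene an adjusted p under 0.05 (smallest 0.86). In 12 of them no glutamate gene had an unadjusted p under 0.05. There was 1 without the filter, 1 with the Y-linked factor and 1 with the thalamic covariate, and 0 to 2 when each library was left out. The genes were Grm4, Grin2b, Grin1 and Grm3. Of the partner genes, 2 had an unadjusted p under 0.05 with RLE size factors, without the filter, with filterByExpr, with thinned counts, with the Y-linked factor and with the thalamic covariate, 4 without both libraries high in thalamic markers, and 1 to 4 when each library was left out. Over all genes the count ran from 235 (DESeq2) to 802 (no filter), and adjusted calls from 1 to 36.

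With the replicate number as a block, 2 glutamate genes (Grin2b and Grm4) and 3 partner genes had an unadjusted p under 0.05 and none had an adjusted one, while adjusted calls over all genes went from 1 to 8. The log2 fold changes became -0.070 for Slc17a6, -0.044 for Grid1, -0.034 for Grin2a and -0.018 for Gria1. The numbers do not pair the mice: same-number correlations ran from -0.19 to 0.36, and 1 of the 4 DJ-1+/+ mice correlated best with its own number, while DJ-1+/+ replicate 4 and DJ-1-/- replicate 5 correlated at 0.61.

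Directions turned in 56 of 512 values, over 17 of the 27 genes. Grid1 became -0.0083 with RLE size factors, -0.0063 with DESeq2 and -0.0066 with filterByExpr. Dlg4 became 0.0029 without the filter and 0.0019 with the thalamic covariate, and Slc17a6 became -0.0029 with thinned counts. With the Y-linked factor Slc17a8 became -0.35, Grin3b -0.22, Grm8 -0.099, Dlg4 0.054, Grm2 0.036 and Grin2c 0.018. Without both libraries high in thalamic markers Grm2 became 0.21, Dlg4 0.067, Grm8 -0.041, Grin2d 0.034, Homer1 0.032 and Slc17a6 -0.024. The causes were not tested. With each library left out, log2 fold changes ran from -0.17 to 0.91 for Slc17a8, -0.073 to 0.81 for Grin3b, -0.46 to 0.29 for Grm2, -0.11 to 0.37 for Grm8, -0.31 to 0.023 for Grin2b, -0.066 to 0.15 for Gria1, -0.063 to 0.094 for Gria2, -0.12 to 0.089 for Grid1, -0.12 to 0.019 for Grik4, -0.043 to 0.16 for Grik5, -0.041 to 0.16 for Grin2a, -0.15 to 0.013 for Grin2d, -0.14 to 0.028 for Grin3a, -0.073 to 0.066 for Slc17a6 and -0.062 to 0.095 for Dlg4.

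Grin3b and Slc17a8 have intervals that reach beyond 1 on the log2 scale. DJ-1-/- libraries were all deeper than DJ-1+/+ libraries, so depth and genotype cannot be told apart except by thinning. Regional markers and Y-linked transcripts divide the mice unevenly between the genotypes.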

Other observations

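The partners of glutamate receptors also set a pair of libraries apart. In 20 of the 49 partner genes DJ-1+/+ replicate 4 and DJ-1-/- replicate 5 were both above the other 7 libraries, where 5.52% of all genes tested showed this, and in 2 (Neto1 and Dlg2) both were below, where 5.79% of all genes did. Shank3, a postsynaptic scaffold, was at 70.0 and 54.6 cpm in these libraries and at 9.09 to 28.9 cpm in the others. Nptx2, a secreted pentraxin that gathers AMPA receptors, was at 67.7 and 49.7 cpm against 9.01 to 29.9 cpm. Cnih3, an auxiliary AMPA subunit, was at 68.8 and 69.2 cpm against 5.94 to 50.01 cpm, and Camk2a, the kinase of the postsynaptic density, was at 269.7 and 271 cpm against 108 to 205 cpm. Markers of the habenula, which borders the thalamus, were a list added after the data were seen. They summed to 183 and 175 cpm in the same libraries against 19.8 to 76.3 cpm in the others. The libraries were singled out by marker levels after the data were seen, and what divides them was not tested.

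Markers of dopamine neurons, which carry several of these receptors, summed to 544 to 1026 cpm in DJ-1+/+ and 813 to 1065 cpm in DJ-1-/- mice, and 5 of these 10 genes reached an unadjusted p under 0.05 with edgeR, all of them higher in DJ-1-/- mice, where 2.83% of all genes tested reached one. These were Th, Slc6a3, Pitx3, Ret and Foxa1, of which Pitx3 and Foxa1 had only 16 and 63 counts over all mice. The adjusted p of the 5 genes was 1 each, and exact permutation tests of their cpm gave p from 0.0635 to 0.127. Of the cerebellar markers 6 of 10, and of the choroid plexus markers 5 of 8, reached an unadjusted p under 0.05 with edgeR, against 2.83% of all genes. All of them were lower in DJ-1-/- mice, with an adjusted p of 1 each. Exact permutation tests gave p from 0.0317 (Itpr1) to 0.492 (Cbln3) for those cerebellar markers. Over the 8 choroid plexus markers they gave 0.0794 to 0.635. DJ-1+/+ replicate 1 had the highest cerebellar sum and DJ-1+/+ replicate 4 the highest choroid plexus sum. Gabra6 had 102 counts in DJ-1+/+ replicate 1 and 0 to 2 in the other mice. Astrocyte markers, which include the uptake carriers Slc1a2 and Slc1a3, summed to 1481 to 1654 cpm over all mice.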
